A study of Mus musculus with 192 samples.

Results

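Among marrow progenitors with much CD135 on the surface, 44 of 64 cells gave no Dach1 transcript and 20 gave at least 1, and 3.08% of the 4162 other genes measured differed at least 2-fold between them. The cells were single LSK progenitors (Lin-negative, Sca-1-positive, cKit-positive) from C57BL/6 mice aged 8 to 16 weeks, with no treatment or mutation named for them, sequenced in 2 library pools of 96 cells. Within each pool the 32 cells with the highest CD135 antibody signal were taken, 64 of the 192 cells in all. CD135-high cells without a unique molecular identifier (UMI, which counts a captured transcript once) of Dach1 form the Dach1-negative side, and CD135-high cells with 1 or more UMIs the Dach1-positive side, so the members were chosen by the measured CD135 signal and the Dach1 count. The labels name no animal, so all cells count as 1 biological sample and no test or p-value is given. Intervals are exact 95% intervals that cover counting error only, not the variation from cell to cell or from animal to animal.

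CD135 is the receptor tyrosine kinase FLT3, and LSK cells that carry much of it include progenitors that have begun to express lymphoid genes while they keep myeloid potential. Dach1 encodes a nuclear protein of the Ski family that binds DNA and acts mostly as a transcriptional repressor with the NCoR and Sin3A complexes. The series title links the loss of Dach1 expression to lymphoid priming. The question here is whether, once CD135 is high, the presence of a Dach1 transcript goes with any other difference between the cells.

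Pool 1 gave 18 Dach1-negative and 14 Dach1-positive cells, and pool 2 gave 26 Dach1-negative and 6 Dach1-positive cells. The sides thus differ in their pool make-up, and pooled values are set beside those of each pool below. The CD135 signals at the edge of the class were close: 1118 arbitrary units for the last cell taken and 1110.2 for the next cell in pool 1, and 1132.4 and 1132.1 in pool 2. The last cell taken held 2 Dach1 UMIs in pool 1 and 0 in pool 2. Dach1-negative cells had 7243 to 35405 gene UMIs with a median of 16711.5, and Dach1-positive cells 10267 to 41199 with a median of 19646.5. The median share of spike-in UMIs was 3.47% in Dach1-negative and 3.54% in Dach1-positive cells.

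Dach1 (ENSMUSG00000055639) lies on the minus strand of chromosome 14 (GRCm38, 97786853 to 98169765). The only annotated gene on the opposite strand that the counts hold there, Gm16331, had 0 UMIs in these cells. The Dach1-positive side held 42 Dach1 UMIs, or 103 UMIs per 1000000 gene UMIs (CPM; interval 74.3 to 139). Of its 20 cells, 12 held a single UMI, 4 held 2, and the remaining cells held 3, 4, 6 and 9. These values chose the sides and are given as a description.

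A single UMI stood for 58.05 CPM in a CD135-high cell of median depth, so most calls rest on the smallest signal the method can give. A count of 0 in a Dach1-negative cell of median depth allows a level of up to 179.5 CPM (the limit of 3 UMIs), which is above the summed level of the Dach1-positive side. Dach1-negative therefore means that no Dach1 transcript was detected, not that none was there. Of the 32 deeper cells 34.4% were Dach1-positive, against 28.1% of the 32 shallower ones. When each cell was thinned to 12147 UMIs, 7 Dach1-negative cells and 1 Dach1-positive cell were too shallow to keep, 6 Dach1-positive cells turned Dach1-negative, and 23.2% of the 56 cells left were Dach1-positive.

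Within the CD135-high class, Dach1 detection did not follow the CD135 signal the same way in both pools. In pool 1, 25% of the upper 16 cells and 62.5% of the lower 16 cells by CD135 rank were Dach1-positive. In pool 2 the shares were 25% and 12.5%. Median CD135 was 1899 in Dach1-negative and 1514 in Dach1-positive cells of pool 1, and 1622 in Dach1-negative and 2019 in Dach1-positive cells of pool 2.

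**Figure D1:**
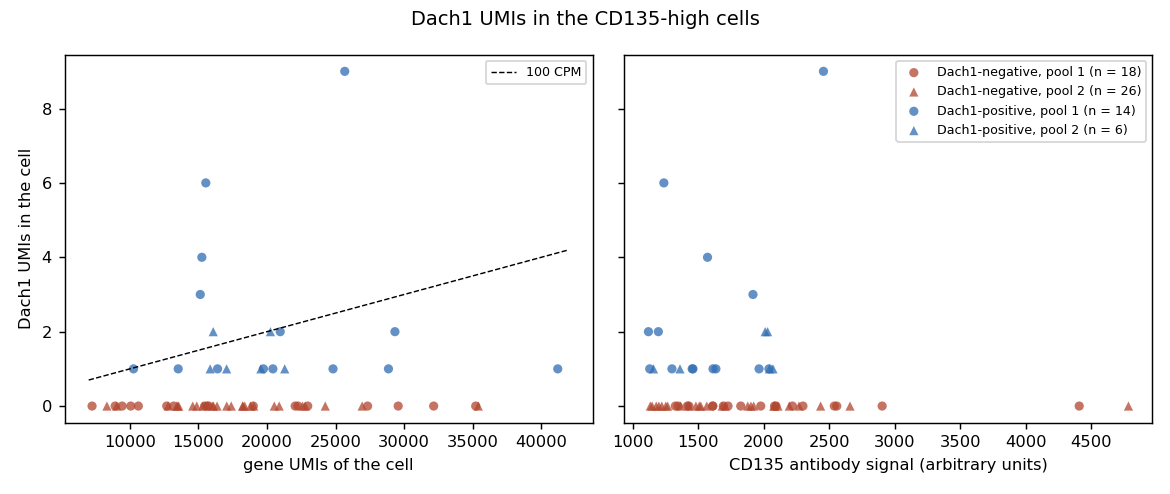
Dach1 UMIs of each CD135-high cell against its gene UMIs (left) and its CD135 antibody signal in arbitrary units (right); red marks Dach1-negative and blue Dach1-positive cells, circles pool 1 and triangles pool 2, and the dashed line is 100 CPM. Of the 20 Dach1-positive cells 12 lie at 1 UMI, and the 4 cells with 3, 4, 6 and 9 UMIs are all from pool 1.

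Among the surface signals, which were measured by the sorter and are independent of the sequencing, CD127 was higher and CD16/32 lower at the median of Dach1-negative cells in both pools. CD127 is the interleukin-7 receptor alpha chain, a protein of lymphoid progenitors. Its signal in Dach1-negative cells was 26.7 at the lowest, 714 at the median and 13831 at the highest, against -61.3, 422 and 13284 in the same order in Dach1-positive cells. The ranges overlap almost wholly, but the middle of the Dach1-negative side lies higher. In pool 1 the medians were 842 in Dach1-negative and 493 in Dach1-positive cells, and in pool 2 they were 646 in Dach1-negative and 266 in Dach1-positive cells. A signal above the median of its pool's CD135-high cells was seen in 27 of 44 Dach1-negative and 5 of 20 Dach1-positive cells. Signals above 2000 were found in 8 of the 44 Dach1-negative and 1 of the 20 Dach1-positive cells. Without these cells the median of the Dach1-negative side was still 203 units higher.

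CD16/32, the low-affinity IgG receptors of myeloid progenitors, had a median of 391 in Dach1-negative and 587 in Dach1-positive cells. The medians were 359 in Dach1-negative and 606 in Dach1-positive cells of pool 1, and 403 in Dach1-negative and 451 in Dach1-positive cells of pool 2. The full range was 62.2 to 2178 in Dach1-negative and 101.5 to 1503 in Dach1-positive cells, so single cells of both sides cover the same signals. The CD135 middle and lower classes are the remaining cells of each pool by CD135 rank. There too CD16/32 was lower in Dach1-negative cells in both pools, at 576 against 754 (middle) and 443 against 710 (lower). CD127 medians there were 480 against 520 (middle) and 333 against 428 (lower), but 439 against 331 in pool 1 of the lower class.

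The remaining signals had medians that were close or whose order changed between the pools. Sca-1 had a median of 1986 in Dach1-negative and 1691 in Dach1-positive cells, but in pool 1 the Dach1-negative median was the lower one (1867, against 1928 in Dach1-positive cells). For cKit the median was 4727 in Dach1-negative and 4915 in Dach1-positive cells, and again the order changed between the pools. Dach1-negative cells had 5438 and Dach1-positive cells 4457 in pool 1, and Dach1-negative cells 4270 and Dach1-positive cells 5546 in pool 2. CD150, which marks stem cells, stood at 61.0 in Dach1-negative and 62.4 in Dach1-positive cells. Forward scatter, a measure of cell size, had medians of 140500 in Dach1-negative and 139000 in Dach1-positive cells.

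**Figure D2:**
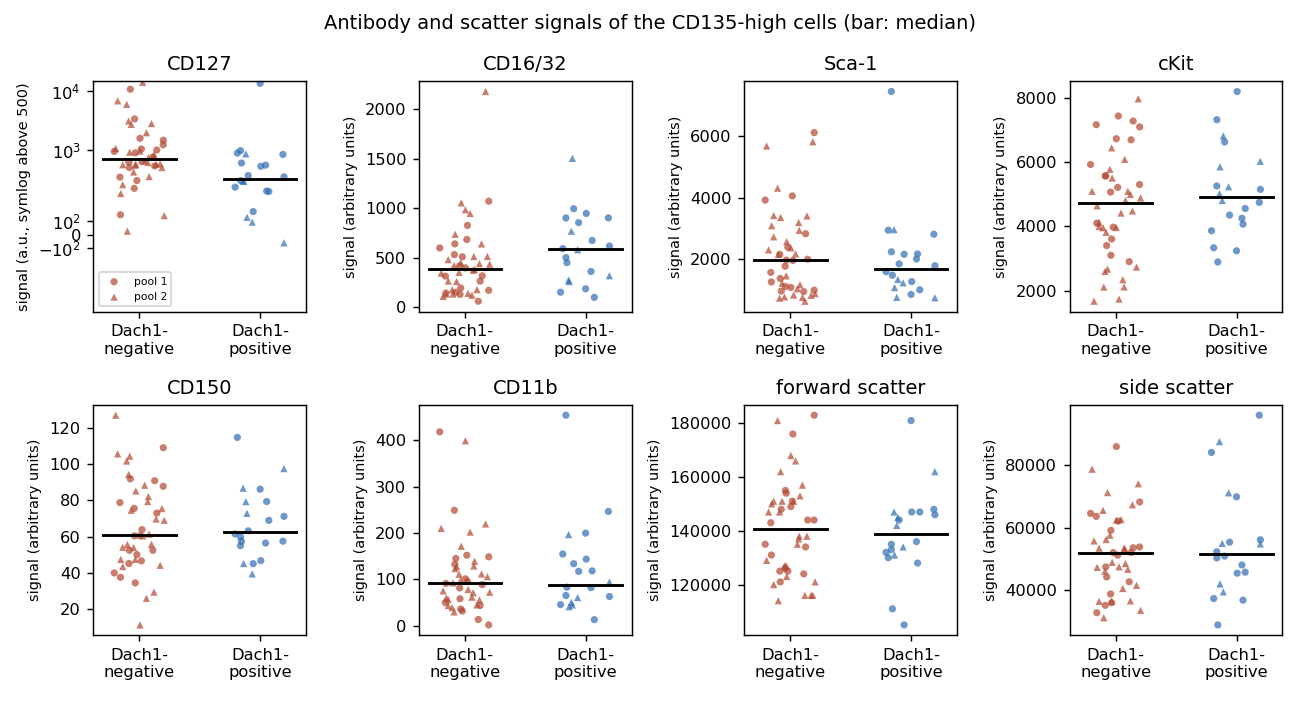
Antibody and scatter signals in arbitrary units for each CD135-high cell, Dach1-negative left and Dach1-positive right in each panel; circles are pool 1, triangles pool 2 and bars medians, and the CD127 axis is linear below 500 and logarithmic above. The CD127 bar stands at 714 for Dach1-negative and 422 for Dach1-positive cells, and the CD16/32 bar at 391 for Dach1-negative and 587 for Dach1-positive cells.

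Across the transcriptome, 4162 genes had at least 50 UMIs over both sides. Of these, 69 (1.66%) were at least 2-fold higher and 59 (1.42%) at least 2-fold lower in Dach1-negative cells, together 3.08%. The counting interval lay above 0 for 311 genes (7.47%) and below 0 for 310 genes (7.45%). The median log2 ratio over all these genes was 0.01.

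The ratios of the pools showed little relation gene by gene. Over the 949 genes with at least 200 UMIs, the log2 ratios of pool 1 and pool 2 had a Pearson r of -0.04 and a Spearman rho of 0.07 across genes, and 52.7% of genes had the same sign. Genes are not independent replicates, and these are descriptions. The same measure for the CD135 upper class over the lower class gave an r of 0.64 and a rho of 0.39 over 2128 genes. That contrast had 64 against 63 cells, while the Dach1 split had only 6 Dach1-positive cells in pool 2. The values are thus unlike in counting error and in genes. The Dach1 split gave an r of -0.06 and a rho of 0.07 in the CD135 middle class. In the lower class it gave an r of 0.08 and a rho of 0.04. In the CD135 middle class, 29 of 4343 genes (0.668%) were 2-fold higher and 109 (2.51%) 2-fold lower in Dach1-negative cells, and in the lower class 90 of 4545 (1.98%) and 301 (6.62%), with other numbers of cells on each side.

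Most genes that mark the lymphoid path differed by less than 2-fold between the sides. Of 24 lymphoid priming genes, 18 were measured (at least 50 UMIs), and 16 of these were higher and 2 lower in Dach1-negative cells, where 50.9% of all genes were higher. The median log2 ratio was 0.19, and 0.01 over all genes. A 2-fold difference was reached by 1 of the 18, Lsp1, which was higher, beside 1.66% of all genes. The counting interval lay above 0 for 7 of the 18, beside 7.47% of all genes. It lay below 0 for 1, beside 7.45%. The median was 0.08 in pool 1 and 0.34 in pool 2. Summed over all 24 genes, the list made up 2487 to 10754 CPM in single Dach1-negative cells with a median of 4943, and 2455 to 9625 CPM in Dach1-positive cells with a median of 4742. These ranges coincide. The list's median ratio between the CD135 upper and lower classes was 1.53.

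Dntt, on chromosome 19 (41029275 to 41059525, plus strand), encodes terminal transferase, which adds bases at the joints of antigen receptor genes. Dach1-negative cells held 0 to 3017 CPM of it with a median of 730, and Dach1-positive cells 0 to 4559 CPM with a median of 417. Summed, Dach1-negative cells stood at 879 CPM (698 UMIs) and Dach1-positive cells at 808 CPM (329 UMIs), a log2 ratio of 0.12 (-0.07 to 0.32). Pool 1 gave -0.04 and pool 2 gave 1.05. A single Dach1-positive cell of pool 1 held 90 of the 329 Dntt UMIs together with 1 Dach1 UMI, and without it the ratio was 0.51. Thinning moved it to -0.32 and leaving out the CD127-high cells to -0.19, so no direction is given for Dntt.

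The other lymphoid members with the most UMIs were close between the sides as well. Flt3, the gene of CD135 itself, stood at 544 CPM in Dach1-negative and 511 CPM in Dach1-positive cells (log2 0.09, -0.15 to 0.34), so this transcript was close between the sides too. Ighm, the IgM heavy chain gene that progenitors transcribe before rearrangement, had 106 to 1568 CPM per Dach1-negative cell with a median of 499.5, and 0 to 1009 CPM per Dach1-positive cell with a median of 347. Its summed ratio was 0.30 (0.04 to 0.57), 0.04 in pool 1 and 0.43 in pool 2. Bcl11a, a regulator needed for B cells, had 0.14.

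Lower in the list of UMI counts, 3 members with larger ratios were picked out after their values were seen. Lsp1, an actin-binding protein of leukocytes, had a median of 137 CPM per Dach1-negative and 64.99 CPM per Dach1-positive cell, and a ratio of 1.01 (0.46 to 1.58) with 0.85 in each pool. Cd52, a surface glycoprotein, had 0.98 (0.33 to 1.67). Ccr9, the chemokine receptor of thymus-seeding cells, had 0.76 from 89 UMIs in Dach1-negative and 27 in Dach1-positive cells, but -1.07 after thinning. The lower members were Satb1, a chromatin organiser of lymphoid genes, and Ikzf1, which encodes Ikaros. Satb1 stood at 418 CPM in Dach1-negative and 555 CPM in Dach1-positive cells, a ratio of -0.41 (-0.66 to -0.16), with -0.34 in pool 1 and -0.46 in pool 2, and 0.0033 where 2 Dach1 UMIs were asked for. Ikzf1 had -0.17 (-0.47 to 0.14).

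Later lymphoid markers were too scarce to compare, and the myeloid marker Mpo had no common direction in the pools. Il7r, the gene of CD127 (chromosome 15, 9505788 to 9530176, minus strand), was found in 6 of 44 Dach1-negative cells (13.6%, exact interval 5.17 to 27.4) and 1 of 20 Dach1-positive cells (5%, 0.127 to 24.9). Its 31 UMIs in Dach1-negative and 11 in Dach1-positive cells gave a log2 ratio of 0.53 (-0.50 to 1.67), and the top cell held 33.3% of them. Rag1, a recombinase gene on chromosome 2 (101638282 to 101649501, minus strand), had 4 UMIs on each side, in 3 Dach1-negative cells and 1 Dach1-positive cell, all of which had a CD127 signal above 2000; the gene overlaps B230118H07Rik, which had 31 UMIs. Mpo, the myeloperoxidase gene of the granulocyte and monocyte path (chromosome 11, 87793581 to 87804413, plus strand), had 0 to 891 CPM per Dach1-negative cell and 0 to 580 CPM per Dach1-positive cell. Its summed level was 121 CPM in Dach1-negative and 115 CPM in Dach1-positive cells, a ratio of 0.07 (-0.45 to 0.60), with -0.15 in pool 1 and 1.36 (0.05 to 3.04) in pool 2.

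Marker lists of other lineages held few measured genes. B lineage genes summed to 41.6 CPM in Dach1-negative and 44.2 CPM in Dach1-positive cells with none of 11 members measured. The T, ILC and NK list summed to 301 CPM in Dach1-negative and 253 CPM in Dach1-positive cells, the erythroid list to 684 CPM in Dach1-negative and 766 CPM in Dach1-positive cells, and the mast cell and basophil list to 12.6 CPM in Dach1-negative and 24.6 CPM in Dach1-positive cells. The mast cell and basophil sums rest on 10 UMIs per side, with 12.1 CPM in Dach1-negative and 6.73 CPM in Dach1-positive cells of pool 1, and 12.9 CPM in Dach1-negative and 72.7 CPM in Dach1-positive cells of pool 2. Gata1, Vwf and Tcf7 were at 0 in all 64 cells. Granulocyte-monocyte genes summed to 1627 CPM in Dach1-negative and 1623 CPM in Dach1-positive cells. Of 9 measured members 5 were higher and 4 lower, beside 50.9% and 49.1% of all genes, with a median ratio of 0.07. Of 4 measured megakaryocyte genes 3 had lower values, beside 49.1% of all genes. Their median was -0.28, with -0.23 in pool 1, -0.53 in pool 2 and -0.05 after thinning. In the CD135 middle class it was 0.21, with 4 of 4 higher beside 48.6% of all genes. In the lower class it was -0.78, with 0 of 4 higher beside 44.6% of all genes.

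The stem cell list was on the lower side in Dach1-negative cells in both pools. All 6 measured genes of 20 were lower, beside 49.1% of all genes. Their median ratio was -0.38, and it was -0.40 in pool 1 and -0.36 in pool 2. None of them reached 2-fold, and the counting interval lay below 0 for 4 of the 6, beside 7.45% of all genes. Over all genes, 24.4% were lower in both pools. The summed list had a median of 1699 CPM per Dach1-negative cell (125 to 6193) and 2757 CPM per Dach1-positive cell (437 to 4163). The highest cell of all is thus a Dach1-negative one. The 14 members below 50 UMIs, among them Procr and Mecom, are not counted here.

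Meis1, a homeobox gene that stem cells need (chromosome 11, 18879817 to 19018985, minus strand), had 0 to 596 CPM per Dach1-negative cell with a median of 197, against 24.3 to 790 CPM per Dach1-positive cell with a median of 274. The summed ratio was -0.69 (-1.03 to -0.34), -0.63 in pool 1 and -0.65 in pool 2. Several annotated genes that overlap Meis1 held 61 UMIs, and the strand rule of the counting is not given. Hlf, a transcription factor gene of long-term stem cells, had 0 to 2654 CPM with a median of 344 in Dach1-negative cells and 0 to 2114 CPM with a median of 668 in Dach1-positive cells. Its ratio was -0.54 (-0.77 to -0.31), -0.59 in pool 1 and -0.29 in pool 2. The ranges of both genes overlapped between the sides.

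The other measured stem cell members were Ifitm3 (-0.40), an antiviral membrane protein, Txnip (-0.36), the thioredoxin inhibitor, Angpt1 (-0.29), the ligand of the Tie2 receptor, and Ifitm1 (-0.12). Outside this list Lmo2, the bridging factor of the stem cell transcription complex, had 57.5 to 1180 CPM per Dach1-negative cell with a median of 430, and 97.1 to 1235 CPM per Dach1-positive cell with a median of 730. Its ratio was -0.45 (-0.68 to -0.22), with -0.33 in pool 1 and -0.76 in pool 2. Lmo2 belongs to a list of Hox and stem cell transcription factors. Of its 13 measured members 6 were higher and 7 lower, beside 50.9% and 49.1% of all genes, with a median of -0.02. Kit had -0.35 (-0.66 to -0.04). It belongs to a cytokine receptor list with 5 of 8 measured members higher and 3 lower, beside 50.9% and 49.1% of all genes. The median of that list was 0.12, but -0.04 in pool 1 and -0.12 in pool 2. Dach1-positive cells were deeper, at medians of 16711.5 gene UMIs in Dach1-negative and 19646.5 in Dach1-positive cells, and came more often from pool 1. With Dach1-positive cells paired by depth within their pool, Meis1 stood at -0.80 and Hlf at -0.31.

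Genes induced by interferon were a further list on the lower side in both pools. All 6 measured genes of 18 were lower (49.1% of all genes were). Their median ratio was -0.40, and it was -0.41 in pool 1 and -0.62 in pool 2. In pool 1, 5 of the 6 were lower, beside 2089 of the 4162 genes. In pool 2, all 6 were lower, beside 1995 of the 4162. The counting interval lay below 0 for 2 of the 6, beside 7.45% of all genes. A 2-fold difference was reached by 1 of the 6, Ifi27, beside 1.42% of all genes. The summed list had a median of 858 CPM per Dach1-negative cell (334 to 2893) and 982 CPM per Dach1-positive cell (511.5 to 3401). These single-cell ranges overlap, and the top cell, a Dach1-positive one, held 5.21% of the list's UMIs. Measured members included Ifi27 (-1.26), Oasl2 (-0.96), Irf9 (-0.46), Ifi47 (-0.34) and Ifi203 (-0.24), and the weakest ratio of a measured member was -0.12. Ifi27 stood at 49.1 CPM in Dach1-negative and 118 CPM in Dach1-positive cells, but after thinning, which also repeats the Dach1 call, its ratio was 0.27. Ifi203 shares its region with Mndal, which had 343 UMIs.

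Ddx58, which encodes the RNA sensor RIG-I (chromosome 4, 40203773 to 40239828, minus strand), was not on the interferon list. Both Ddx58 and Gvin1 were taken from the 15 lower genes of the naming rule given below. That rule asked for equal sign in both pools and the counting interval farthest from 0. Their shared sign and large ratios thus follow from the choice. Ddx58 was found in 19 of 44 Dach1-negative cells, with 0 to 266 CPM and a median of 0. It was found in 16 of 20 Dach1-positive cells, with 0 to 435 CPM and a median of 100.5. The ratio was -1.58 (-2.24 to -0.93), -1.06 in pool 1, -2.37 in pool 2 and -1.89 after thinning. After thinning a Ddx58 UMI was seen in 17 of 43 Dach1-negative cells and 8 of 13 Dach1-positive cells. Gvin1, a very large GTPase induced by interferon (chromosome 7, 106156556 to 106215326, minus strand), had a median of 146.2 CPM per Dach1-negative cell (0 to 1117) and 251 CPM per Dach1-positive cell (0 to 2182). Its ratio was -1.13 (-1.44 to -0.83), -1.03 in pool 1 and -1.25 in pool 2. Gvin1 belongs to a family of near copies, 1 of which, Gm18853, overlaps it with 23 UMIs, so its counts are uncertain.

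Promoter sequence is shown for Ddx58 and Ifi203, in which an interferon-type element was found. Promoters of Irf9, Ifi47 and Oasl2, and the other annotated promoter of Ifi203, held no match, and Ifi27 and Gvin1 were not searched. Sequences are those of RefSeq on GRCm38.p6, 250 bases before to 50 after the annotated start, 5′ to 3′ on the strand of the gene, and capitals mark a match to GAAANNGAAA on either strand. The motif occurs in 3.44% of 32851 promoters and, counted by gene, in 3.99% of 27025 genes. Of the measured list members, 4 had a promoter in that set, 1 with the motif. A match is a description of these letters only.
Ddx58, chr4:40239776-40240075, minus strand, match from base 2 after the start: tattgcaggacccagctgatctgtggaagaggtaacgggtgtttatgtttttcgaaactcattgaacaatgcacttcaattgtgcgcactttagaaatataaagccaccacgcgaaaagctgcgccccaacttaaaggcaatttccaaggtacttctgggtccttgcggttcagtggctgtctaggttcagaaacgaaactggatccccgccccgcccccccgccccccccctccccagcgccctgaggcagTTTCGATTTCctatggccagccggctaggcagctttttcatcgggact
Ifi203, chr1:173942443-173942742, minus strand, match from base -35: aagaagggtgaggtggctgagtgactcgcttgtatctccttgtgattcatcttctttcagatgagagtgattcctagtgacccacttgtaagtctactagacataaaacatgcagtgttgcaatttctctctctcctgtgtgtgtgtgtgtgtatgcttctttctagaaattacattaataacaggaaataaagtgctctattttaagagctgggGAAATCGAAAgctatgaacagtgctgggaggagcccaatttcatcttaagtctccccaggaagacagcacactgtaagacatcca

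Besides these lists, 15 genes per direction were named by a rule that asked for pools of equal sign, for at most 20% of a gene's UMIs in any 1 cell, and for the counting interval farthest from 0. On the higher side, Hmga2, a chromatin protein that promotes self-renewal in fetal stem cells, had 131 CPM in Dach1-negative and 54.0 CPM in Dach1-positive cells. It was detected in 31 of 44 Dach1-negative and 10 of 20 Dach1-positive cells. The ratio was 1.28 (0.60 to 2.01), 1.34 in pool 1 and 1.07 in pool 2. Hspa5, the chaperone BiP of the endoplasmic reticulum, had 0.85 with 0.78 in pool 1 and 0.71 in pool 2. Tmsb4x, thymosin beta 4, which binds free actin, had 0.69, with 0.28 in pool 1 and 1.00 in pool 2, and a single Dach1-negative cell reached 10166 CPM of it.

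The further genes on that side spanned ratios of 0.98 for Arf6 to 1.65 for Arrb2. They comprise the GTPase gene Arf6, the beta-arrestin gene Arrb2, the deubiquitinase gene Usp10 (1.54), the DNA polymerase epsilon gene Pole (1.52), the kinase C substrate gene Marcks (1.55), the splicing factor gene Zcrb1 (1.62), the annexin gene Anxa6 (1.21), the membrane-remodelling gene Chmp2a (1.44), the lamin-processing protease gene Zmpste24 (1.48) and the lymphoid membrane protein gene Lrmp (1.29). Bub1b, a spindle checkpoint kinase gene, had 1.18, but only 0.25 in pool 1 and 1.01 in pool 2, and the sides hold the pools in other proportions. In cells paired by CD135 signal it stood at -0.0010.

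On the lower side, Spns2, which exports sphingosine-1-phosphate, had 52.9 CPM in Dach1-negative and 132.6 CPM in Dach1-positive cells and was detected in 25 of 44 Dach1-negative and 18 of 20 Dach1-positive cells. The ratio was -1.33 (-1.94 to -0.72), -1.35 in pool 1 and -1.34 in pool 2; it overlaps Mybbp1a, which had 76 UMIs. Camk1d, a calmodulin-dependent kinase gene of very high count in these libraries, had 12177 UMIs on the Dach1-negative and 9362 on the Dach1-positive side. Its level was 15336 CPM in Dach1-negative and 22992 CPM in Dach1-positive cells, a ratio of -0.58, with -0.61 in pool 1 and -0.23 in pool 2. Per cell it ran over 74.1 to 41778 CPM in Dach1-negative and 1784 to 49731 CPM in Dach1-positive cells. An alternative scaling left Camk1d and other abundant genes out of the total. Whether so high a count stands for transcripts of the kinase was not tested.

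The remaining lower genes ran from -1.72 for Zfp654, a zinc finger gene, to -1.23 for Tut7, which encodes an RNA uridylyltransferase. Among them were Ccl4, a chemokine gene (-1.24), Lrp5, a Wnt co-receptor gene (-1.26), Myct1, a target of Myc (-1.23), Mtss1, an actin and membrane regulator gene (-1.32), Ecd (-1.34), the nuclear pore gene Nup214 (-1.36), Arhgap4 (-1.23) and the cilium gene Cep290 (-1.24). Each of these had between 22 and 35 UMIs on the Dach1-negative side, apart from Tut7 with 55 and Zfp654 with 19. Thinning moved 11 of the 30 named genes by over 1.5-fold. Besides Ifi27, 5 came closer to 0, namely Pole (0.86), Marcks (0.60), Zfp654 (-1.02), Myct1 (-0.33) and Nup214 (-0.46). The 5 that moved further from 0 were Usp10, Zcrb1, Chmp2a, Ccl4 and Lrp5.

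**Figure D3:**
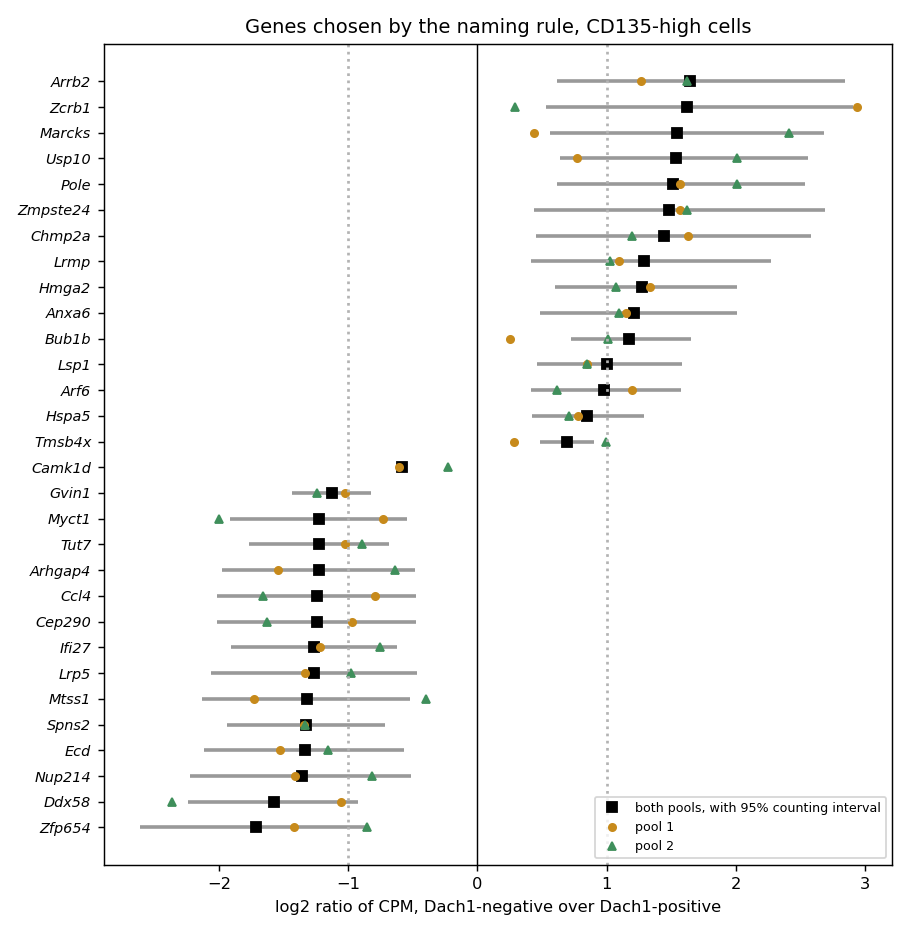
Log2 ratio of CPM, Dach1-negative over Dach1-positive, for the 15 genes per direction that the rule named; black squares are both pools with 95% counting intervals (grey), yellow circles pool 1 and green triangles pool 2, and dotted lines mark 2-fold. The rule asked for the same sign in both pools, and Bub1b shows a joint value of 1.18 above those of pool 1 (0.25) and pool 2 (1.01).

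The values of MHC class II genes rested on few cells. The 6 measured genes had a median ratio of 1.22, but -1.23 in pool 1 and 1.82 in pool 2. A single Dach1-negative cell of pool 2, at CD135 rank 28, held 426 of the 907 class II UMIs (46.97%). Without it, an alternative chosen after seeing the data, the median was 0.28. Cell cycle lists differed between the pools. The 17 measured S phase genes had a median of 0.13, with 0.49 in pool 1 and -0.12 in pool 2. The 7 G2/M genes had a median of 0.13, with 0.13 in pool 1 and 0.92 in pool 2. In pool 2, 7 of 7 were higher, beside 2163 of the 4162 genes. For 3 of these 7 genes a single cell held over 20% of the UMIs.

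Known partners of the Dach1 protein differed little between the sides. The list of Ski, Eya and Smad factors and co-repressors had 7 of 16 counted members measured, with a median of 0.20. Of these, 5 were higher and 2 lower, beside 50.9% and 49.1% of all genes. Ncor1, a co-repressor scaffold, stood at 306 CPM in Dach1-negative and 295 CPM in Dach1-positive cells, and Sin3a at 61.7 CPM in Dach1-negative and 66.3 CPM in Dach1-positive cells. Dach2, Eya1 and Six5 were among the members below 50 UMIs.

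**Figure D4:**
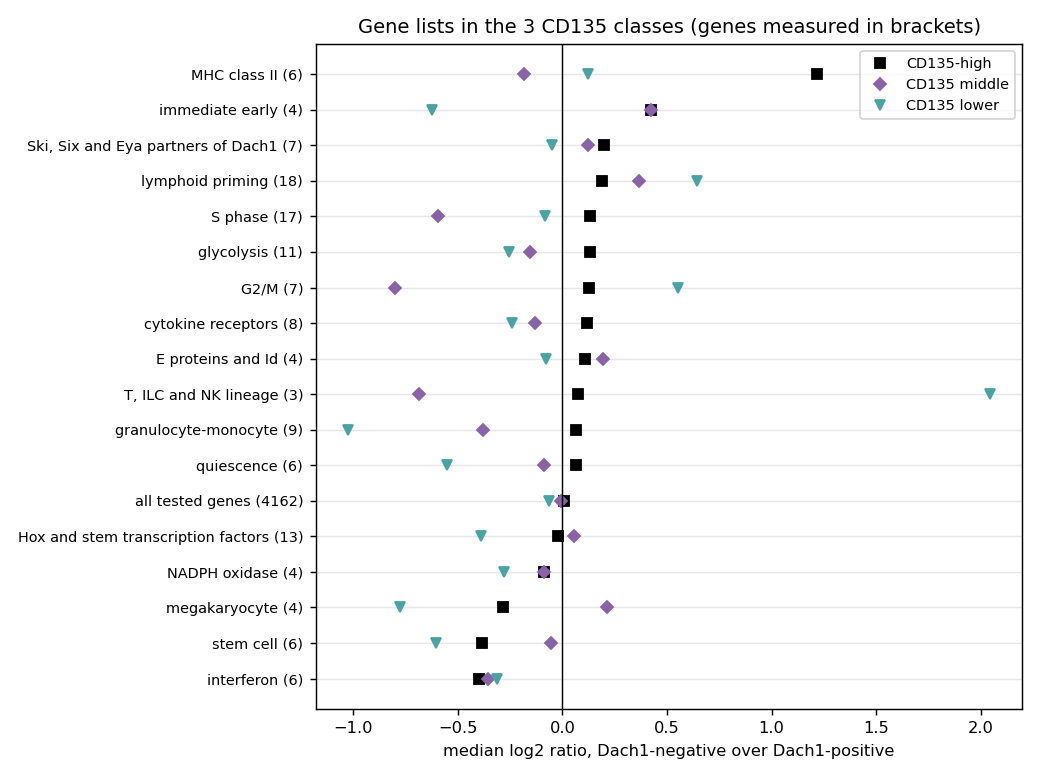
Median log2 ratio, Dach1-negative over Dach1-positive, of each gene list in the CD135-high (squares), middle (diamonds) and lower class (triangles), with the number of genes measured in the CD135-high cells in brackets. The interferon list lies at -0.40, -0.36 and -0.31 in the 3 classes, the stem cell list at -0.38, -0.06 and -0.61, and the lymphoid priming list at 0.19, 0.37 and 0.64.

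The same split in cells with less CD135 gave other values for the lymphoid genes. In the middle class, 21 Dach1-negative and 43 Dach1-positive cells had a lymphoid median of 0.37, with 16 of 18 members higher, beside 48.6% of all genes. In the lower class, 13 Dach1-negative and 50 Dach1-positive cells had a median of 0.64, with 12 of 18 higher, beside 44.6% of all genes, but pool 1 alone gave -0.39 there and the class without CD127-high cells -0.01. Dntt had log2 ratios of 0.12 in the CD135-high, 0.39 in the middle and 1.82 in the lower class. Mpo had 0.07, -0.39 and -3.48 in these classes, and Satb1 -0.41, 0.07 and 0.75. Differences between the classes were not tested, as no replicate allows it.

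Summed over both pools, cells with several Dach1 UMIs stood further from the Dach1-negative cells than cells with 1 UMI for some genes. For other genes they stood nearer. Levels were compared in 44 cells with 0, 12 with 1 and 8 with 2 or more UMIs, of which 6 of the 8 came from pool 1. Hlf stood at 455, 426 and 1030 CPM, and Lmo2 at 480, 470 and 948 CPM. Gvin1 had 215, 337 and 683 CPM, and Ddx58 42.8, 104 and 164.3 CPM. Dntt had 879, 1100.5 and 348 CPM, Ighm 524, 506 and 297 CPM, and Hmga2 131, 72.3 and 25.3 CPM. Gvin1, Ddx58 and Hmga2 were named by the rule in these same cells, so part of their order follows from the choice. The cells with 1 UMI stood furthest for Satb1 (418, 643 and 417 CPM), Angpt1 (263, 370 and 247) and Bub1b (272, 96.4 and 158). The same held for Lsp1 (173, 72.3 and 107), Ifi27 (49.1, 120 and 114) and Camk1d (15336, 23468 and 22243). The order of the cells with 1 UMI was not the same in both pools. Hlf stood at 467, 337 and 1231 CPM in pool 1, and at 446, 637 and 358 CPM in pool 2. Dntt stood at 929, 1432 and 271 CPM in pool 1, and at 844, 312 and 606 CPM in pool 2. Gvin1 lay between the ends with 1 UMI in both pools.

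In single cells with 2 or more Dach1 UMIs, Hlf was high in 5 of 6 pool 1 cells, at 1636, 1094, 1574, 2114 and 1479 CPM, and at 136.4 CPM in the remaining one. Both such cells of pool 2 had less, 247 and 497.5 CPM. Dntt in the pool 1 cells was 95.4 to 506 CPM, and in the pool 2 cells 247 and 1057 CPM. For Hlf the log2 ratio of 0 over 2 or more UMIs was -1.40 in pool 1 and 0.32 in pool 2. Lmo2 kept its sign, with -0.90 in pool 1 and -1.28 in pool 2, and so did Gvin1, with -1.51 and -1.95. Pool 2 contributes only 2 cells to these ratios.

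As lists, 0 over 2 or more UMIs gave medians of 0.43 for lymphoid priming (15 of 18 higher), -0.66 for stem cell (5 of 6 lower) and -0.64 for interferon genes (5 of 6 lower), where 51.5% of all genes were higher and 48.5% lower. The ratio of 0 over 1 UMI gave 0.18, -0.26 and -0.29 for these lists. For lymphoid priming the order changed between the pools. There 0 over 1 UMI gave -0.02 in pool 1 and 0.43 in pool 2, and 0 over 2 or more gave 0.44 and 0.09. The stem cell list had -0.28 and -0.11, then -0.42 and -0.90. The interferon list had -0.29 and -0.44, then -0.68 and -0.83. Over both pools, 0 over 2 or more UMIs gave medians of 0.86 for S phase and 0.96 for G2/M genes. Of the G2/M members, 7 of 7 were higher in cells with 0 than in those with 2 or more UMIs. For 0 over 1 UMI these medians were 0.07 for S phase and -0.29 for G2/M genes. Cells with 2 or more UMIs were few and mostly from pool 1, and the part of the pool in these values was not tested.

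**Figure D5:**
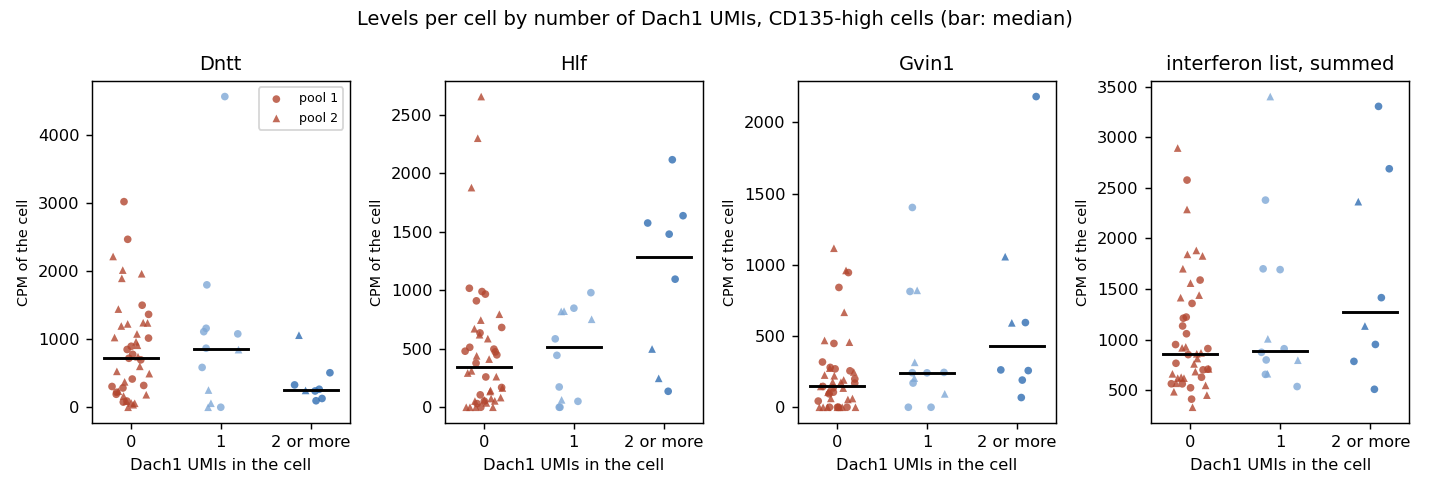
CPM per cell of Dntt, Hlf, Gvin1 and the summed interferon list in CD135-high cells with 0, 1 and 2 or more Dach1 UMIs (44, 12 and 8 cells); circles are pool 1, triangles pool 2 and bars medians. The Dntt panel shows the 1 cell with a single Dach1 UMI at 4559 CPM, and the Hlf panel the 5 pool 1 cells at 1094 to 2114 CPM in the last column.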

How the data were processed

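The members and gene lists were chosen with earlier results of these data known. The authors deposited raw UMI counts per gene and cell from an adapted CEL-seq2 protocol with UMIs of 6 bases, per the labels' protocols; for the aligner, the counting tool, the strand rule and the UMI rule: not given in the sources used here. The submitters' processing notes name the build GRCh38, a human one, while all gene identifiers are mouse, so the build used is not known. Coordinates come from GENCODE M21 on GRCm38 by identifier.

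Cells under 20% of their pool's median gene UMIs were dropped after ranking by CD135, which left 191 of 192. Doublets were not called, as cells were sorted singly. UMIs were summed per side and divided by all gene UMIs, without spike-ins, to give CPM. Ratios carry exact conditional binomial intervals and shares exact Clopper-Pearson intervals. A side without UMIs was set at a floor of 3. Lists are described by the median log2 ratio over members that reach 50 UMIs. Named genes were the 15 per direction described in the report, the genes Dach1, Dntt, Il7r, Rag1 and Mpo, those of the sorted proteins, and the 4 most counted members of each described list; others were picked after their values were seen, and a few single genes are not reported here. The step was tested on simulated data. Python 3.11.15, numpy 2.4.6, pandas 2.3.3, scipy 1.17.1 and matplotlib 3.10.9 were used.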

Additional observations from a re-analysis of the deposited data

How the results depend on the processing

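The number of genes past 2-fold, 69 higher and 59 lower as reported, moved with the cells and UMIs on each side and with the minimum. In all there were 369 after thinning, 201 with cells paired by depth and 197 paired by CD135, 261 in cells from the median depth up, 381 with Dach1-positive called from 2 UMIs, 62 with 40 cells per pool, 284 in pool 1 alone, 576 in pool 2 alone, 676 with a minimum of 20 UMIs and 2376 with a minimum of 1. Over the 20 alternatives the medians kept their sign: 0.07 to 0.43 for lymphoid priming, -0.66 to -0.29 for stem cell and -0.72 to -0.28 for interferon genes. Of single genes, Ifi27 (0.27) and Nfe2 (0.058) and Ccr9 (-1.07) turned after thinning, Cdkn1b in pool 2 (0.45), Satb1 (0.0033) and Ccr9 (-0.17) from 2 Dach1 UMIs, and Bub1b (-0.0010) and Rac2 (-0.035) paired by CD135. The MHC class II median turned with that pairing (-1.14) and in pool 1 (-1.23), and so did Cd74 (-2.48 and -2.32). H2-Aa was -4.51 paired by CD135, -4.11 from the median depth up, -0.0054 from 2 Dach1 UMIs, -1.52 with 24 cells per pool, -4.47 in pool 1, -1.15 as the mean of the pools and -1.55 without the cell richest in class II UMIs. H2-Ab1 was -4.34 paired by CD135, -1.05 from the median depth up, -0.63 with 24 cells per pool, -2.96 in pool 1, -0.74 as the mean of the pools and -0.93 without that cell. In the CD135 middle class the stem cell median, -0.06, was 0.41 in pool 2. In the lower class it was -2.50 from the median depth up, -1.17 with 24 cells per pool and 0.00 with a minimum of 1 UMI, against -0.61, and the lymphoid median, 0.64, was -0.39 in pool 1 and -0.013 without CD127-high cells. Apart from the loss of cells by construction, the cause was not tested. Pairing by depth or CD135 was not run for the middle and lower classes. No paired analysis was possible because the replicate numbers only name cells and no test was made.

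The limits lie in detection. With a median of 17227 gene UMIs per CD135-high cell, most Dach1-positive calls rest on 1 UMI, and a count of 0 does not show that a cell lacks the transcript. The pools enter the sides in different shares, and side, depth and pool cannot be fully told apart. No animal is named, so nothing here speaks of variation between mice.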
